A study of Rattus norvegicus with 32 samples.

Results

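Gpx4, Gclc and Selenom, 3 genes of glutathione and selenoprotein redox chemistry, were followed in the lungs of control and sham rats and of rats up to 72 h after hemorrhage. They were taken by gene symbol, 3 genes with 1 probe each among 5143 array probes that carried a single symbol (5022 different symbols). They had been chosen because earlier results of the same arrays showed them low at 48 h or 72 h, so their levels below are a description and carry no test. On the arrays used, Gpx4 lay below every sham lung from 6 h on and was 3.22-fold lower at 72 h. Selenom lay below every sham lung at 48 h (2.16-fold lower) and 72 h (2.01-fold). Gclc overlapped the sham range at each time except 72 h, when it was 2.19-fold lower.

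The arrays were 2-colour spotted arrays on which RNA of each lung was set against a pool of RNA from organs of untreated rats. The rats were male Sprague-Dawley animals of 280 to 300 g. In the hemorrhage groups, arterial catheters were placed 7 to 10 days ahead, and 40% of the estimated blood volume was then withdrawn, and their lungs were taken at 1 of 7 times: 1 h, 3 h, 6 h, 16 h, 24 h, 48 h or 72 h after the bleeding. Sham rats carried the same instruments and were not bled, and control rats had neither instruments nor bleeding. No genetic change or drug distinguished the groups. The labels do not say clearly at what time sham lungs were taken, so a hemorrhage time cannot be matched to a sham time.

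Glutathione is a small peptide that cells use to reduce peroxides and to bind reactive compounds. Its synthesis begins with glutamate cysteine ligase, an enzyme made of the catalytic subunit Gclc and the modifier subunit Gclm, and glutathione synthetase, Gss, completes it. Glutathione peroxidases spend glutathione to reduce peroxides. Gpx4 is the member that reduces lipid peroxides within membranes and thereby holds back ferroptosis, a form of cell death driven by iron and oxidised lipid. Gpx4 and Selenom carry selenocysteine, which is built in at a UGA codon under the control of an RNA element in the messenger, and Selenom is a small thioredoxin-like protein of the endoplasmic reticulum. Gclc is no selenoprotein. In lung, the lining fluid of the alveoli is rich in glutathione.

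The starts of Gpx4 and Selenom are shown because the 2 selenoprotein genes were both low at the late times and the sequence in front of a gene is where transcription factors bind. The windows are the 250 bases before the outermost annotated start, 5′ to 3′ on the gene's strand, from RefSeq on build GRCr8. Capitals mark matches to the GC box GGGCGG or CCGCCC and to the CCAAT box CCAAT or ATTGG. The Gpx4 window lies at chr7:10303630-10303879 on the minus strand and the Selenom window at chr14:82619203-82619452 on the plus strand.
Gpx4: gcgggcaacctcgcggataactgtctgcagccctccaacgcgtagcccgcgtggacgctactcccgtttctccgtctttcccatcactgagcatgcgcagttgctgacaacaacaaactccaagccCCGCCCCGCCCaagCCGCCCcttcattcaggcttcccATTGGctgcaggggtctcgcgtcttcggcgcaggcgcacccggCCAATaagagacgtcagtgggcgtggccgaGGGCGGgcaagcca
Selenom: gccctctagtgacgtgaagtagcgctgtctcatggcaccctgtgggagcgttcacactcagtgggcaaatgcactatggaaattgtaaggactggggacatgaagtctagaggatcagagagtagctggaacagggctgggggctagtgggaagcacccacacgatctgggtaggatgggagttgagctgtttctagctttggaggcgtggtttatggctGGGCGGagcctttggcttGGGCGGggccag

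The Gpx4 window held 4 GC boxes, 2 of which overlap by 1 base, and 2 CCAAT boxes. RefSeq lists 3 starts for Gpx4, and the windows of the other two held 4 GC boxes and 3 CCAAT boxes in 1 case and 0 of each in the other. The Selenom window held 2 GC boxes and 0 CCAAT boxes. Among 33469 windows of the same length in the RefSeq table, 30.5% held a GC box and 34.0% a CCAAT box, counted on both strands. Those shares are not matched for base composition. Mean GC content was 52.2% over all windows, beside 64.8% in the printed Gpx4 window and 56.8% in the Selenom window. The core of the antioxidant response element, searched as TGACNNNGC on both strands, had 0 matches in any of these windows and was present in 10.1% of all windows. An AP-1 site, searched as TGANTCA, also had 0 matches and was present in 6.34%. The tabled Gclc window starts inside the annotated gene and is not printed; it held 1 GC box and 0 of the other 3 motifs. These matches describe letters in these windows and say nothing about binding.

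Of the 32 arrays, sham replicate 2 and the array of 16 h replicate 3 stood apart by a high signal of liver genes and were left out, which leaves 30 arrays in 9 groups: 5 sham, 5 at 6 h, 2 at 16 h and 3 in each other group. The median log2 ratio of 19 liver genes was 2.60 and 1.54 on those 2 arrays, against -0.95 to 0.36 on the other 30. On the 30 arrays, the median of 8 type II pneumocyte and club cell genes was 0.78 to 2.76, and that of 5 type I pneumocyte genes 0.77 to 2.38, so the tissue carried lung markers. Values are log2 ratios to the organ pool after subtraction of each array's median; a value of 0 is the level of a middle probe of that array. Each array had 13056 spots, with 12151 to 12895 holding a value. All 3 genes had both of their spots measured on all 32 arrays, and the spots of a pair correlated across arrays at 0.972 for Gpx4, 0.931 for Gclc and 0.890 for Selenom. The widest gap between paired spots was 0.468 for Gpx4, 0.518 for Gclc and 0.623 for Selenom, so a difference smaller than that on 1 array is within what the spots of 1 probe can show. The signal of each channel is not used here, so distance from background is unknown.

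Gpx4, which protects membranes from lipid peroxides, had a log2 ratio of 1.24, 0.87, 0.90, 0.98 and 0.76 in sham lungs. In the uninstrumented controls it was 0.88, 0.87 and -0.19. The first 2 controls lay in the sham range and the third lay far below it. At 1 h the values were 0.96, 0.90 and 0.67, and at 3 h 1.35, 0.25 and 1.13. At these early times most arrays remained within or near the sham range, with 3 h replicate 2 the exception. At 6 h they were 0.38, 0.05, 0.25, 0.14 and 0.45. All 5 lay below every sham array and within the range of the controls. At 16 h Gpx4 was -0.24 and 0.09, at 24 h 0.43, -0.30 and -0.19, and at 48 h -0.08, 0.04 and -0.65. At 72 h it was -0.23, -0.70 and -1.27, below every sham and every control array.

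Across 6 h to 72 h, 16 of 16 arrays lay below the lowest sham value for Gpx4 and 7 of 16 below the lowest control value. The share of all probes with such counts was not determined. The step between 3 h and 6 h is where the Gpx4 values left the sham range. Group means were 0.95 ± 0.18 (SD, n = 5) in sham, 0.25 ± 0.17 (n = 5) at 6 h and -0.74 ± 0.52 (n = 3) at 72 h. The control mean was 0.52 ± 0.61 (n = 3), and the sham mean stood 0.43 ± 0.28 (SE) above it, or 0.08 without control replicate 3. Relative to sham, the Gpx4 difference (± SE of the fit) was -0.10 ± 0.28 at 1 h and -0.04 ± 0.28 at 3 h. It was -0.70 ± 0.24 at 6 h, -1.02 ± 0.32 at 16 h, -0.97 ± 0.28 at 24 h and -1.18 ± 0.28 at 48 h. The lowest value was that at 72 h, -1.69 ± 0.28, a level 3.22-fold lower than in sham. The early differences were smaller than their errors, and those from 6 h on were larger than theirs. Gpx4 was chosen with its low late values known, so size beside error is a description here and no test. The 3 h difference had no settled sign, since it was 0.29 without 3 h replicate 2 and -0.26 without 3 h replicate 1.

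Ordered by mean, Gpx4 was highest in sham, then at 3 h, at 1 h, in control, at 6 h, 24 h, 16 h, 48 h and 72 h. Every neighbour in that order differed by less than the larger of the 2 SDs, so the order of adjacent groups is not resolved.

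**Figure D1:**
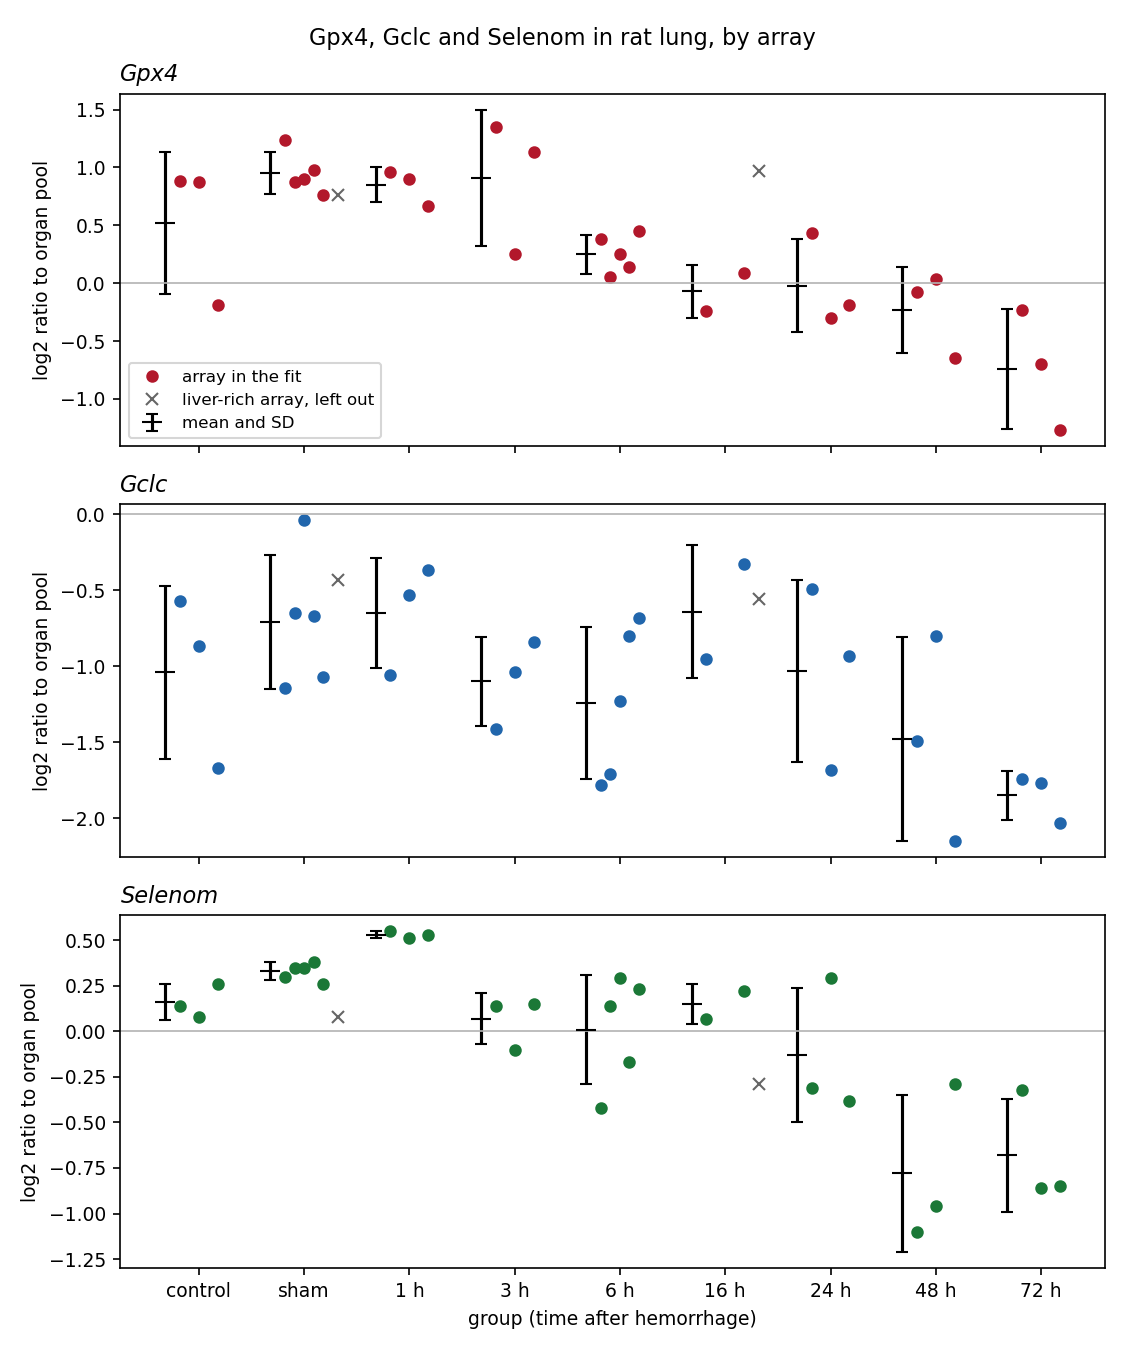
Centred log2 ratio to the organ pool (vertical axis) of Gpx4, Gclc and Selenom on each array, by group (horizontal axis); dots are arrays in the fit, crosses the 2 arrays with liver signal, and bars the mean ± SD of the arrays in the fit. Gpx4 lies at 0.76 to 1.24 in sham and at -1.27 to -0.23 at 72 h, Selenom at 0.26 to 0.38 in sham and at -1.10 to -0.29 at 48 h, and Gclc clears the sham range only at 72 h.

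Gclc, the catalytic subunit that sets the pace of glutathione synthesis, varied widely within groups. In sham lungs it was -1.14, -0.65, -0.04, -0.67 and -1.07. In controls it was -0.57, -0.87 and -1.67, a range that overlaps the sham range. At 1 h it was -1.06, -0.53 and -0.37, and at 3 h -1.41, -1.04 and -0.84. At 6 h the values were -1.78, -1.71, -1.23, -0.80 and -0.68. At 6 h 3 of the 5 arrays lay below all sham arrays and the other 2 inside the sham range. At 16 h it was -0.95 and -0.33, at 24 h -0.49, -1.68 and -0.93, and at 48 h -1.49, -0.80 and -2.15. Through 48 h Gclc therefore overlapped sham at each time. At 72 h it was -1.74, -1.77 and -2.03, below every sham and control array and with the narrowest spread of any group of Gclc values.

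The Gclc mean was -0.71 ± 0.44 (SD, n = 5) in sham and -1.85 ± 0.16 (n = 3) at 72 h. Its difference from sham was -1.13 ± 0.34 (SE) at 72 h, 2.19-fold lower, and -0.77 ± 0.34 at 48 h. The 48 h value leaned on 1 array: it was -0.44 without 48 h replicate 3 and -1.11 without 48 h replicate 2. At the earlier times the Gclc differences were 0.06 at 1 h, -0.38 at 3 h, -0.52 at 6 h, 0.08 at 16 h and -0.32 at 24 h, with SEs of 0.30 to 0.39. Leaving out 1 array turned the sign at 1 h, 16 h and 24 h: to -0.08 without 1 h replicate 3, -0.23 without 16 h replicate 2 and 0.01 without 24 h replicate 2. The 6 h value was -0.36 without sham replicate 4, the highest sham array, and the 3 h value was then -0.22. The sham mean stood 0.32 ± 0.34 above control, or 0.01 without control replicate 3. In the order of group means, from 16 h, 1 h and sham at the top to 48 h and 72 h at the bottom, no 2 neighbours differed by more than the larger SD.

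Selenom, the endoplasmic reticulum selenoprotein, lay close together within the sham and 1 h groups. In sham it was 0.30, 0.35, 0.35, 0.38 and 0.26, and in controls 0.14, 0.08 and 0.26. At 1 h it was 0.55, 0.51 and 0.53, above every sham and every control array. At 3 h it was 0.14, -0.10 and 0.15, below the whole sham group. At 6 h it was -0.42, 0.14, 0.29, -0.17 and 0.23, at 16 h 0.07 and 0.22, and at 24 h -0.31, 0.29 and -0.38. From 6 h to 24 h arrays inside or near the sham range stood beside arrays well below it. At 48 h Selenom was -1.10, -0.96 and -0.29 and at 72 h -0.32, -0.86 and -0.85. All 6 of these late arrays lay below every sham and every control array.

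The Selenom mean was 0.33 ± 0.05 (SD, n = 5) in sham, 0.53 ± 0.02 (n = 3) at 1 h and -0.78 ± 0.43 (n = 3) at 48 h. Its difference from sham was 0.20 ± 0.21 (SE) at 1 h; the groups did not overlap, but the shift was smaller than the error of the fit, which takes 1 residual spread per probe from all 9 groups. It was -0.26 ± 0.21 at 3 h, -0.32 ± 0.18 at 6 h, -0.18 ± 0.24 at 16 h and -0.46 ± 0.21 at 24 h. The differences then deepened to -1.11 ± 0.21 at 48 h, 2.16-fold lower, and -1.01 ± 0.21 at 72 h, 2.01-fold lower. The 24 h value depended on 1 array and was -0.67 without 24 h replicate 2. The 6 h value was -0.21 without 6 h replicate 1, and the 16 h value -0.10 without 16 h replicate 1. In the order of means, 1 h stood above sham, sham above control and 24 h above 72 h by more than the larger SD, while the other neighbours differed by less. The 48 h and 72 h means, -0.78 and -0.68, were not separated.

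The 3 genes thus left the sham range at different times. Of the 16 arrays from 6 h on, 16 were below the lowest sham value for Gpx4, 14 for Selenom and 9 for Gclc. Against the lowest control value the counts were 7, 11 and 7. How common such pooled counts were over all probes was not determined. At 72 h 3 of the 3 genes lay below sham without overlap, where 9.18% of the 6112 probes tested did so. At 48 h 2 of the 3 did (Gclc overlapped), where 8.07% of probes did. For lower values at the other times, 1 of the 3 did at 24 h (Gpx4; 6.68% of probes), 2 at 16 h (Gpx4 and Selenom; 11.4%, with 2 arrays), 1 at 6 h (Gpx4; 2.99%), 1 at 3 h (Selenom; 5.09%) and 0 at 1 h (3.27%). Selenom at 1 h was the 1 case of a higher group without overlap, where 3.63% of probes were. The genes were chosen on these contrasts, so these counts are not evidence about them. Between sham and control 0 of the 3 separated in either direction (3.19% of probes).

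By size of the fitted difference at 72 h, Gpx4 was the 43rd lowest of 6112 probes, Gclc the 215th and Selenom the 308th. At 48 h they were the 100th, 388th and 130th lowest. The genes were chosen for low values at 48 h or 72 h, so these ranks are no test. The median over all probes was 0.02 at 72 h and 0.00 at 48 h. The comparisons with sham share the same 5 sham arrays, so their values are not independent. The late times (24, 48 and 72 h) set against the early ones (1, 3 and 6 h) use no sham array. That contrast still holds the late lungs on which the genes were chosen and is no separate check. There the difference was -1.0 ± 0.17 (SE) for Gpx4, -0.46 ± 0.21 for Gclc and -0.74 ± 0.13 for Selenom, each from 9 late and 11 early arrays. The late and early arrays overlapped for all 3 genes (0.0818% of probes had no overlap): for Gpx4, -1.27 to 0.43 late and 0.05 to 1.35 early; for Selenom, -1.10 to 0.29 and -0.42 to 0.55.

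**Figure D2:**
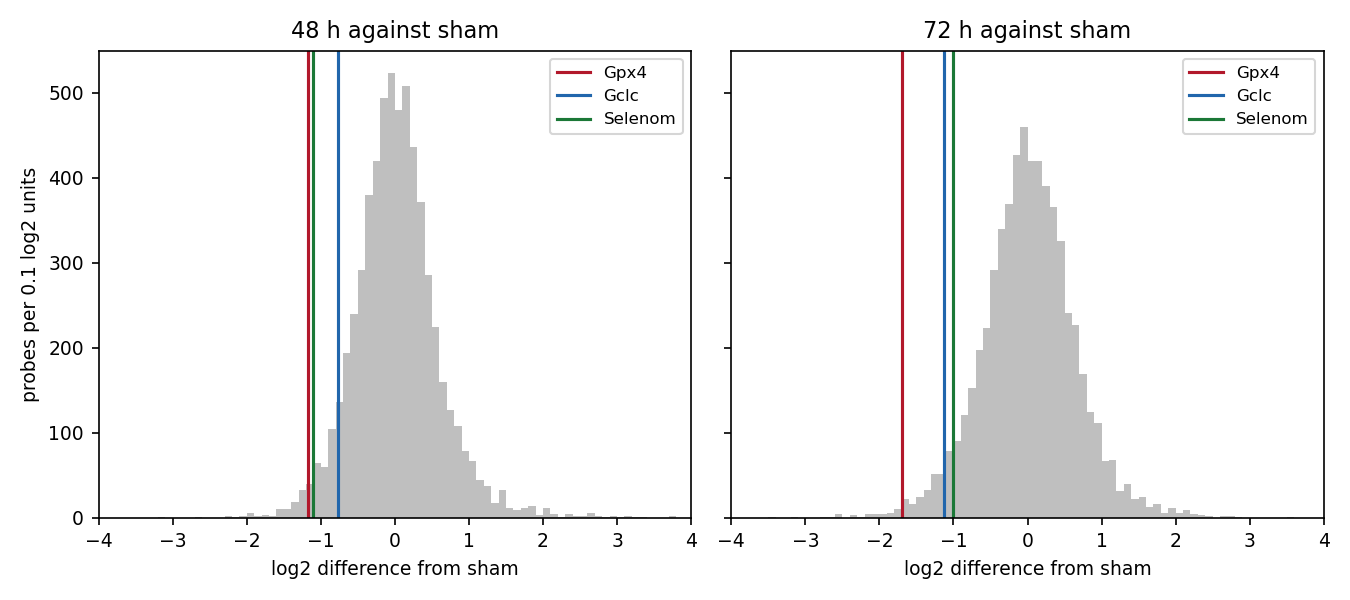
Histograms of the log2 difference from sham (horizontal axis) of 6112 probes, as probes per bin of 0.1 log2 units (vertical axis), at 48 h and 72 h, with vertical lines at the 3 genes. At 72 h Gpx4 lies at -1.69, Gclc at -1.13 and Selenom at -1.01, and at 48 h the lines stand at -1.18, -0.77 and -1.11, all in the lower tail.

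Across the 30 arrays, Gpx4 correlated with Selenom at r = 0.640 and with Gclc at 0.606, and Gclc with Selenom at 0.456. These are descriptions over arrays that share the organ pool and the group structure. After subtraction of each group's mean the values were -0.0675 for Gpx4 and Selenom, 0.430 for Gpx4 and Gclc, and -0.236 for Gclc and Selenom. Over the 9 group means r was 0.821, 0.694 and 0.888 for the same pairs. The 3 genes were chosen with their low late values known, so these correlations are no independent result.

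Some other probes had patterns close to these genes over the 30 arrays, among 4838 probes with 1 symbol and a value on every array. For Gpx4 the closest were Rpl36 (r = 0.922) and Rps14 (0.853), proteins of the large and the small ribosomal subunit, Qrsl1 (0.892), Aifm1 (0.870), a mitochondrial flavoprotein, and Arhgef11 (0.865). Rpl36 had a mean log2 ratio of 1.10 in sham and -0.92 at 72 h. The most opposite to Gpx4 were P2rx5 (-0.830), Cilk1 (-0.805) and Acsm2 (-0.790). For Gclc the closest were Myl2 (0.797), Slc25a4 (0.756), Kap (0.752), Mb (0.751) and Rbp2 (0.723). Myl2 and Mb encode a myosin light chain and myoglobin of heart and muscle, and Kap is a kidney protein. The source of these transcripts was not tested. Myl2 had a mean of -1.41 in sham and -3.04 at 72 h. The most opposite to Gclc were Zc3hav1 (-0.803), Hoxa5 (-0.799) and Sh2b2 (-0.748). For Selenom the closest were Mrpl51 (0.869), Acsl6 (0.813), Nat1 (0.807), Mbp (0.757) and Krt5 (0.751), and the most opposite Atp2c2 (-0.780), Grk4 (-0.701) and Ccr3 (-0.694). Mrpl51, a protein of the mitochondrial ribosome, had a mean of 0.61 in sham and -0.27 at 72 h. These probes were picked as the extremes of a ranking, and their likeness carries no p.

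Cell type markers were called (adjusted p under 0.05) at early as well as late times. Of all 6112 probes, 2.98% were called at 3 h, 3.52% at 24 h, 1.18% at 48 h and 5.87% at 72 h. The median of the 8 type II pneumocyte and club cell genes was 1.67 to 2.76 over sham arrays, 0.78 to 1.48 at 48 h and 0.82 to 0.98 at 72 h. The median difference of these genes from sham was already -0.65 at 6 h and -0.80 at 16 h, and was -1.04 at 48 h and -0.79 at 72 h. At 6 h and 16 h 0 of 8 were called, but only 0.0% and 0.0654% of all probes were. In the limma fit Scgb1a1, a club cell secretory protein, fell by 2.15 at 72 h, the surfactant protein Sftpc fell by 1.65 and the surfactant protein Sftpb fell by 1.5, all 3 with an adjusted p under 0.05. The median of 5 type I pneumocyte genes was 1.06 to 2.38 in sham and 0.86 to 1.76 at 72 h, where 1 of the 5, Akap5, fell by 0.98. The endothelial median over 5 genes was 0.10 to 0.42 in sham and -0.27 to 0.25 at 72 h, where Car4 fell by 2.14 and Kdr rose by 0.86. The neutrophil median over 5 genes was -0.45 to 0.00 in sham, 0.52 to 1.44 at 48 h and 0.00 to 0.73 at 72 h. The median difference of these 5 genes was 0.73 at 1 h, 1.71 at 3 h, 0.65 at 6 h, -0.01 at 16 h, 1.17 at 24 h, 1.25 at 48 h and 0.07 at 72 h. Of them 1 was called at 3 h (Cxcr2, 1.71) and 1 at 72 h (Mmp8, 4.37). Of the macrophage list 1 gene of 8 was measured, with 2.49 to 4.08 in sham and -0.09 to 2.60 at 72 h. Erythroid genes had a median of -0.92 to 0.11 in sham and 0.05 to 0.21 at 72 h, and lymphocyte genes -0.31 to 0.30 and -0.04 to 0.51. Of these, Rhag rose by 1.54, Gata1 fell by 1.24 and Ptprc fell by 1.08 at 72 h. In the liver list F2 rose by 1.21 and Fga fell by 1.33 at 72 h. Several of these genes were called before 72 h. Besides Cxcr2, the calls at 3 h were Gata1 (-1.83), Akap5 (-1.11) and F2 (1.14). At 24 h they were Rhag (1.55), Ptprc (-1.23), F2 (0.96) and the endothelial gene Plvap (-1.2). At 48 h they were Sftpb (-1.32) and F2 (1.14). The part of these shifts in the values of Gpx4, Gclc and Selenom was not tested. In RNA of whole lung, fewer cells of a type and less RNA per cell cannot be told apart.

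On the 2 arrays with liver signal Selenom lay below the rest of each group, Gpx4 stood apart only at 16 h, and Gclc in neither group. Gpx4 was 0.76 on sham replicate 2 and 0.97 on the array of 16 h replicate 3. Gclc was -0.43 and -0.56, and Selenom 0.08 and -0.29. With all 32 arrays the Gpx4 difference at 16 h shrank from -1.02 to -0.64 ± 0.29 (SE) and its groups overlapped, while the 72 h value was -1.65 ± 0.29. Gclc at 72 h was then -1.18 ± 0.32 and Selenom at 48 h -1.07 ± 0.21. Selenom at 3 h and 16 h overlapped sham once sham replicate 2 was included.

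The enzymes around the 3 genes were taken from 7 lists with 180 genes, of which 107 genes (111 probes) besides the 3 were tested. A call is a Benjamini-Hochberg adjusted p under 0.05 from limma over all 6112 probes. Of these 111 probes, 0 were called at 1 h, 6 h, 16 h and 48 h and between sham and control, where 0.0%, 0.0%, 0.0654%, 1.18% and 0.0% of all probes were called. At an unadjusted p under 0.05 the numbers were 8, 24, 15, 21 and 6 of 111 probes, where 10.9%, 18.8%, 13.9%, 16.3% and 4.76% of all probes passed. At 3 h 4 rose and 4 fell (7.21% of 111, against 2.98% of all probes). At 24 h 1 rose and 3 fell (3.6%, against 3.52%), and at 72 h 3 rose and 3 fell (5.41%, against 5.87%). Late against early, 4 rose and 4 fell (7.21%, against 7.12%). With all 32 arrays the calls were 0 at 3 h, 1 at 24 h, 2 at 72 h and 2 late against early. Calls over all probes also fell there, to 29, 118, 189 and 187 from 182, 215, 359 and 435. The median difference over the 111 probes was -0.06 at 48 h and 0.02 at 72 h, beside 0.00 and 0.02 over all 6112 probes.

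Among the other glutathione peroxidases, 3 of 7 were measured. Gpx3, the secreted plasma peroxidase and a selenoprotein, fell by 1.02 ± 0.23 at 72 h (limma, adjusted p = 0.0126). Its mean was -0.43 ± 0.29 (SD, n = 5) in sham and -1.45 ± 0.10 (n = 3) at 72 h, without overlap. The call was lost without 72 h replicate 2 (adjusted p = 0.0833) or 72 h replicate 3 (0.0663), and with all 32 arrays (0.245). At 48 h the Gpx3 difference was -0.90 ± 0.23 (adjusted p = 0.0511). Late against early it fell by 0.59 ± 0.14 (adjusted p = 0.0155), a call kept under each omission of 1 array and lost with all 32 arrays (adjusted p = 0.122). Gpx1, the abundant cytosolic peroxidase, was not called: it was 0.89 ± 0.43 above sham at 72 h (adjusted p = 0.223) where Gpx4 was at -1.69. Gpx6, which in rat has cysteine in place of selenocysteine, was -0.89 ± 0.39 at 48 h and 0.00 ± 0.39 at 72 h.

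For glutathione synthesis, the partner of Gclc ran another course. Gclm, the modifier subunit, fell by 1.10 ± 0.29 at 3 h (limma, adjusted p = 0.0393) and had a difference of -0.89 ± 0.29 at 1 h (adjusted p = 0.294). The 3 h call was lost in 6 of 30 omissions of 1 array: without 3 h replicate 1 (adjusted p = 0.163), 3 h replicate 2 (0.159) or sham replicates 1, 3, 5 or 6 (0.0724, 0.0654, 0.0772 and 0.0636). Late against early Gclm rose by 0.93 ± 0.18 (adjusted p = 0.00435), kept under all 30 omissions, where Gclc stood at -0.46 ± 0.21. The Gclm mean was -0.96 ± 0.19 in sham (SD, n = 5), -2.06 ± 0.84 at 3 h and -0.56 ± 0.09 at 72 h (n = 3 each). Its difference from sham was -0.52 ± 0.25 at 6 h, -0.10 ± 0.29 at 24 h and -0.01 ± 0.29 at 48 h. At 72 h it was 0.40 ± 0.29 (adjusted p = 0.442), not called. The late against early rise of Gclm thus set late values near sham against low early values. Gss, which completes the peptide, was 1.08 ± 0.44 at 1 h and 0.02 ± 0.44 at 72 h and was not called. Gsr, which recycles oxidised glutathione, was -0.21 ± 0.28 at 72 h (adjusted p = 0.698). Cth, which makes cysteine from cystathionine, was -1.14 ± 0.37 at 72 h (adjusted p = 0.0626). Slc1a1, a carrier of glutamate and cysteine, rose late against early by 0.73 ± 0.17 (adjusted p = 0.0134, or 0.0531 with all 32 arrays).

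Among genes of methionine metabolism and glutathione breakdown, Mat2a, which makes S-adenosylmethionine, fell by 1.15 ± 0.23 at 3 h (limma, adjusted p = 0.0108) on 1 of its 2 probes; the second stood at -0.36. Bhmt, a betaine methyltransferase, fell by 1.24 ± 0.34 at 3 h. Mat1a, the liver form of the S-adenosylmethionine synthetase, fell by 1.30 ± 0.24 at 24 h (adjusted p = 0.0053), and the call was lost without 24 h replicate 3 (0.0655). Anpep, a peptidase that splits the cysteinylglycine left from glutathione, fell by 0.83 ± 0.23 at 24 h and fell by 0.78 ± 0.23 at 72 h. Ggt5, of the gamma-glutamyl transferase family, was -0.92 ± 0.24 at 48 h (adjusted p = 0.0511). Hagh, which frees glutathione in the glyoxalase pathway, rose at 72 h by 0.87 ± 0.23, lost without 72 h replicates 2 or 3 or sham replicate 3 (adjusted p = 0.175, 0.134 and 0.057).

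Of the other selenoprotein and selenium genes, 16 probes were tested, and Gpx3 was the only one called in any comparison. Selenof, the closest relative of Selenom by structure, was -0.09 ± 0.34 at 48 h and -0.07 ± 0.34 at 72 h where Selenom was -1.11 and -1.01. Selenow was -0.28 ± 0.21 at 48 h and Selenop, the selenium carrier of plasma, 0.48 ± 0.24. Txnrd1, the cytosolic thioredoxin reductase, was 0.26 ± 0.33 at 72 h. Txnrd2, its mitochondrial relative, was 0.82 ± 0.22 at 6 h (adjusted p = 0.0716). Selenbp1 was -1.31 ± 0.40 at 16 h, on 2 arrays (adjusted p = 0.161). Of the machinery that places selenocysteine, Secisbp2 was -0.46 ± 0.26 at 48 h and -0.29 ± 0.26 at 72 h, and Trnau1ap -0.50 ± 0.21 and -0.09 ± 0.21. The adjusted p at 48 h was 0.38 for Secisbp2 and 0.218 for Trnau1ap, and neither gene was called at 72 h.

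**Figure D3:**
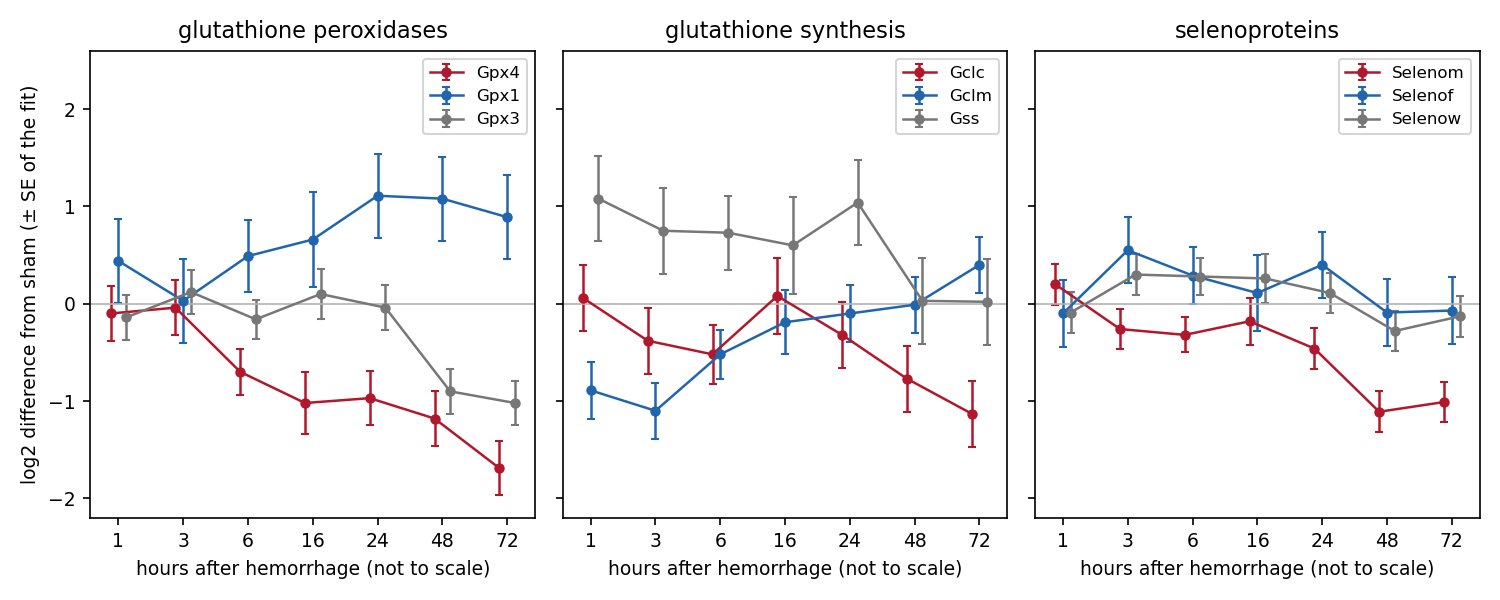
Log2 difference from sham (vertical axis, ± SE of the fit) at 7 times after hemorrhage (horizontal axis, not to scale) for Gpx4 beside Gpx1 and Gpx3, Gclc beside Gclm and Gss, and Selenom beside Selenof and Selenow. At 72 h Gpx4 stands at -1.69, Gpx3 at -1.02 and Gpx1 at 0.89. Gclm has its lowest value, -1.10, at 3 h, when Gclc is at -0.38.

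Genes in the list of lipid peroxidation and iron moved in both directions. At 72 h Alox15, a lipoxygenase that makes lipid peroxides, rose by 1.32 ± 0.33 (limma, adjusted p = 0.0217), and Acsl3, an acyl-CoA synthetase, by 1.14 ± 0.32 (0.0391). The Alox15 call at 72 h was lost without 72 h replicate 2 (0.064) or 72 h replicate 3 (0.174); late against early it rose by 0.93 ± 0.21 (0.00999), kept under all 30 omissions. Acsl4, which feeds polyunsaturated lipid into membranes, was 0.25 ± 0.22 at 72 h and was not called. Ptgs2, the inducible cyclooxygenase, fell by 1.09 ± 0.30 at 3 h and fell by 1.22 ± 0.30 at 24 h. Slc11a2, an iron carrier, rose at 24 h by 1.73 ± 0.48 (adjusted p = 0.042). Alox5ap was -1.71 ± 0.45 at 16 h (adjusted p = 0.129).

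In the other lists, Txn1, thioredoxin, rose at 3 h by 1.25 ± 0.32, Xdh, xanthine dehydrogenase, by 1.35 ± 0.32, Mt3, a metallothionein, by 1.17 ± 0.32, and Ltc4s, leukotriene C4 synthase, by 0.78 ± 0.21 (limma, adjusted p = 0.0357, 0.0243, 0.0418 and 0.0419). Sod1, the cytosolic superoxide dismutase, fell by 0.94 ± 0.28 at 72 h (adjusted p = 0.0484). Late against early Gstt2, a glutathione transferase, rose by 0.53 ± 0.16, while Gsta1, another, fell by 0.74 ± 0.21 and Xdh fell by 0.64 ± 0.20, and Anpep fell by 0.51 ± 0.14. In the list of superoxide, peroxide and NRF2 defence, Hmox1 was 0.14 ± 0.24 and Nqo1 0.19 ± 0.19 at 72 h, neither called. In the same list the ferritin genes Ftl1 and Fth1 were lower at 72 h. Ftl1 was -0.94 ± 0.34 (adjusted p = 0.0986) and Fth1 -0.85 ± 0.41 (0.222). Of the 24 probes in that list, 10 were below sham at 72 h. Their median difference was 0.08, beside 0.02 over all probes. The lowest p between sham and control was that of Prdx6, a peroxiredoxin abundant in lung, at 1.69 ± 0.40 (adjusted p = 0.525), followed by Mafg at 1.14. At 1 h Xdh was 0.99 ± 0.32 (adjusted p = 0.289), and at 6 h Txnl1 was 0.83 ± 0.22 (0.0716).

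Of the 26 calls among these genes, those of Mat2a at 3 h and of Alox15, Gclm, Slc1a1 and Gpx3 late against early were kept under all 30 omissions of 1 array. With all 32 arrays Gclm (adjusted p = 0.0154) and Alox15 (0.0293) late against early were still called, while Mat2a at 3 h (0.175), Slc1a1 (0.0531) and Gpx3 (0.122) late against early were not. The 21 others were each lost under at least 1 omission, among them Sod1 under 19 of 30 (adjusted p up to 0.152, without 72 h replicate 3). At 3 h the highest values were 0.0678 for Xdh, 0.12 for Mt3, 0.143 for Bhmt and 0.147 for Ptgs2, each without 3 h replicate 2, and 0.0784 for Txn1 and 0.145 for Ltc4s without 3 h replicate 1. At 24 h they were 0.278 for Slc11a2, 0.161 for Ptgs2 and 0.149 for Anpep, each without 24 h replicate 3. At 72 h Acsl3 had 0.219 and Anpep 0.2 without 72 h replicate 2. Late against early, Gstt2 had 0.103 without 24 h replicate 3, and Gsta1 had 0.0776, Xdh 0.1 and Anpep 0.0715 without 48 h replicate 3.

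**Figure D4:**
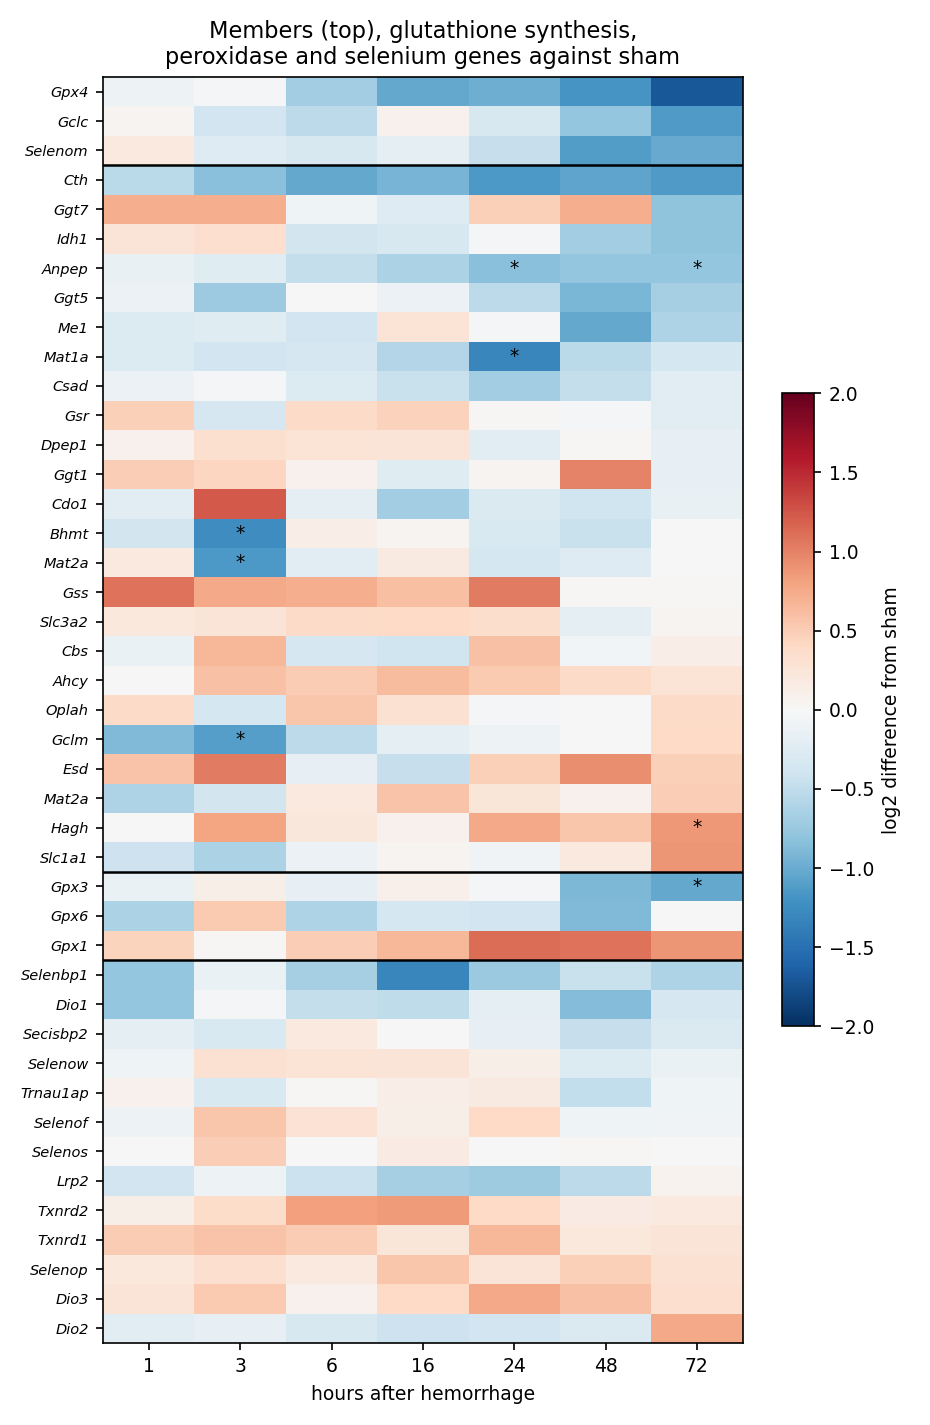
Log2 difference from sham (colour, blue lower and red higher) at 7 times (horizontal axis) for Gpx4, Gclc and Selenom in the top block, and for genes of glutathione synthesis and breakdown, glutathione peroxidases and selenium genes in the blocks under it; a star marks an adjusted p under 0.05 and is not given for the top block. The top block is blue at 48 h and 72 h, from -0.77 to -1.69, while rows of both colours stand in the other blocks.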

How the data were processed

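Lung RNA of 32 rats was set against an organ pool on 2-colour arrays, 1 array each. The deposited values are log2 ratios made by the authors, taken as lung over pool because lung genes were high. For the dyes, scanner software and normalization, the method is not given in the sources used here. Arrays carry no counts, so their number limits the precision. Each array's median was subtracted (deposited medians were -0.38 to 0.06), and spots of 1 accession were averaged. On 30 arrays without sham replicate 2 and the array of 16 h replicate 3, 6112 probes measured on 2 or more arrays in each of 9 groups were fitted with limma 3.58.1 in R 4.3.3 (lmFit, eBayes, two-sided, 9 comparisons). The calculation was tested on simulated data; figures were drawn in Python 3.11.15. Symbols came from the platform annotation.

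The 3 genes, the lists and the tests were chosen with earlier results of these data known. Named list genes are, per comparison, called probes (up to 6 in each direction by size), or, with fewer than 2 calls, the 2 of lowest p; pattern neighbours are the 5 highest and 3 lowest r. List members named beside them as relatives of the 3 genes were chosen after their values were seen. The alternatives were all 32 arrays, no centring, quantile normalization, no filter, spots apart by over 1 log2 unit left out, array weights, the replicate number as a block, and leaving out each array. Each sample is taken as 1 rat; p-values reflect the spread among these samples alone, which may be partly technical.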

Additional observations from a re-analysis of the deposited data

Results flagged for a closer look

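In groups of 5 arrays, 58 sets of values of the 3 genes and of called list genes were examined for an array far from the others, and chance marks about 1 in 20 such sets. Txn1 was 1.87 on sham replicate 4 (0.73 to 0.86 on the other sham arrays). Ltc4s was -0.79 on sham replicate 3 (others -0.36 to -0.22). Bhmt was -0.56 on sham replicate 4 (others 0.71 to 0.86). Slc1a1 was 0.22 on sham replicate 1 (others -0.68 to -0.50). None of Gpx4, Gclc and Selenom had such an array in the sham or 6 h groups.

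On the arrays with liver signal, which the comparisons do not use, Gpx4 was 0.97 on 16 h replicate 3, above the controls (-0.19 to 0.88). Gclc was at -0.43 (sham replicate 2) and at -0.56 (16 h replicate 3), both above the controls (-1.67 to -0.57) and inside the sham range (-1.14 to -0.04). The second lies next to the highest control, closer than paired Gclc spots can differ (up to 0.518).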

How the results depend on the processing

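The differences kept their sign under the 7 other settings and under each omission of 1 array for Gpx4 at 72 h (-1.82 to -1.65, omissions -1.94 to -1.42), Gclc at 72 h (-1.26 to -0.90, omissions -1.24 to -0.96) and Selenom at 48 h (-1.28 to -1.07, omissions -1.36 to -0.95). These are the times of each gene's lowest value, and the genes were chosen for low late values, so a kept sign says little. Elsewhere omissions did turn signs: Gpx4 at 3 h ran from -0.26 to 0.29 and Gclc at 16 h from -0.23 to 0.38. Counts of called list genes, which rest on a p cutoff and are another measure, changed with the setting, and so did calls over all probes. The latter were 182 at 3 h, 4 at 16 h and 215 at 24 h in the main setting. They were 72 at 48 h, 359 at 72 h and 435 late against early. In that order all 32 arrays gave 29, 106, 118, 8, 189 and 187. Array weights gave 738, 195, 167, 910, 920 and 880, and the replicate block 69, 6, 167, 3, 127 and 257. Without centring there were 436 at 24 h and 76 at 48 h. Quantile normalization gave 125 at 3 h and 185 at 48 h. Array weights also gave 329 at 1 h, 350 at 6 h and 30 between sham and control (0 each in the main setting). For the list genes, the counts with all 32 arrays were 0 at 3 h (8 in the main setting), 1 at 16 h (0), 1 at 24 h (4), 2 at 72 h (6) and 2 late against early (8). Without centring they were 8 at 24 h and 1 at 48 h (0); that setting moved the median of all probes by over 0.1 only at 24 h, to -0.15. With quantile normalization they were 5 at 3 h and 5 at 48 h. With discordant spots left out they were 2 at 48 h and 10 at 72 h. With array weights, whose estimation stopped before it converged, they were 2 at 1 h, 19 at 3 h, 4 at 6 h, 2 at 16 h, 22 at 48 h, 15 at 72 h, 2 between sham and control and 13 late against early. With the replicate number as a block they were 2 at 3 h and 0 at 72 h. Replicate numbers showed no clear pairing of the samples. Deviations from group means of 94 same-numbered pairs had a median r of 0.00257 (-0.527 to 0.381), beside 0.000344 for 302 other pairs. Of 29 arrays, 8 correlated best with their own number. Such a check cannot exclude a pairing. Leaving out 1 array gave 1 to 13 calls at 3 h, 0 to 3 at 6 h, 0 to 6 at 24 h, 0 to 2 at 48 h, 0 to 8 at 72 h, 4 to 11 late against early, and 0 to 0 at 1 h, at 16 h and between sham and control. Where 16 h then held 1 array, it was assumed to vary like the other groups. The cause of these changes was not tested. Groups of 2 to 5 arrays limit what can be resolved, and signal over background is not used here.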
